A study of Homo sapiens with 12 samples.

Results

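The 26S proteasome is the protease that degrades most ubiquitin-tagged proteins in human cells, and its subunits, activators, inhibitor and assembly chaperones are encoded by genes whose symbols start with PSM. The genes described here are those whose symbol is PSM, a letter from A to G and a number. This rule uses gene names and no measured value, but the set was chosen with earlier results of these data known. Of 48 such protein-coding genes annotated in GENCODE release 29, 46 had a row in both deposited tables, which hold 24459 and 24745 genes with 23771 shared. PSMA8 and PSMB11, the subunits of the testis and thymus forms, were not analysed here. The RNA came from A549, an established line of human lung adenocarcinoma cells at passage 5 to 10 grown in medium with fetal bovine serum. Cells received 10 ng/mL TGF-β1 together with 40 mM sodium acetate, 10 ng/mL TGF-β1 alone, or neither (control), all for 2 days, with 4 libraries in each of 3 groups. TGF-β1, a secreted cytokine, makes epithelial cells such as these take on mesenchymal features; acetate is the simplest of the short-chain fatty acids. All 3 groups share this cell line, its culture medium and the absence of any genetic change by the study, and separate cultures are not stated for the libraries within a group. If they came from 1 culture, the p-values below rest on technical spread alone.

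As background, the 20S core of the proteasome is a barrel of 4 rings, in which the alpha subunits (PSMA1 to PSMA7) form the outer rings and gate the entrance and the beta subunits (PSMB1 to PSMB7) form the inner rings. Proteins are cut by PSMB5, PSMB6 and PSMB7, which cells exposed to interferon replace by PSMB8, PSMB9 and PSMB10 to form the immunoproteasome, a source of peptides for MHC class I molecules. The 19S cap recognises ubiquitin, removes it and feeds the unfolded substrate into the core through a ring of ATPases (PSMC1 to PSMC6). Other activators can sit on the same ends of the core: the heptameric ring of PSME1 and PSME2, the nuclear PSME3 and the large single-chain PSME4.

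Libraries held between 34689255 and 41564965 counts with acetate, between 37200516 and 53932720 with TGF-β1 and between 38393181 and 53045899 in control, and all 46 proteasome genes passed the filter on low counts in each comparison. The table columns carry codes that no sample label explains: S22 to S25 were read as TGF-β1 plus acetate, S15 to S18 as TGF-β1 and S1 to S4 as control, from the names of the tables and the column set that both tables share. Levels are CPM, a gene's count as a share of the library's TMM-scaled total, and a gene is called where edgeR's quasi-likelihood test gave an adjusted p below 0.05 over all genes tested. All 6 epithelial markers had a row, with summed levels of 6580 to 7551 CPM with acetate, 5576 to 6160 CPM with TGF-β1 and 5945 to 6185 CPM in control. These sums came almost wholly from KRT8, KRT18 and KRT7, while the alveolar markers SFTPB and NAPSA stayed below 2.3 CPM in every library. Of 10 immune-cell markers, 5 had a row (PTPRC, CD3E, LYZ and HLA-DRA did not), and these summed to 24.9 to 26.2 CPM with acetate, 14.4 to 17.7 CPM with TGF-β1 and 13.9 to 16.9 CPM in control, mostly from CD68. The 3 fibroblast markers summed to 17.6 to 20.4 CPM, 5.71 to 6.65 CPM and 0.594 to 0.816 CPM in the same order of groups, none of 3 endothelial markers had a row, and of 3 germ-cell markers SYCP3 alone had one. The epithelial and immune sums were thus higher with acetate and overlapped between TGF-β1 and control, while the fibroblast sums differed between all groups. Single markers moved apart with TGF-β1 against control: KRT7 was called higher and KRT18 and EPCAM lower, and CD68, CD74 and CD79A were called higher and CD14 and ITGAM lower. The part of these markers in the results below was not tested. In these bulk libraries, fewer cells that express a gene and less of its RNA in each cell cannot be told apart.

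In TGF-β1 cells against control, most genes of the 26S particle were slightly higher, PSMD2 was almost 3 times its control level, and the immunoproteasome genes and the PSME1-PSME2 activator were lower. Of the 46 genes, 25 were called higher and 12 lower, against 34.1% of all tested genes called higher and 32.8% called lower. The median log2 fold change of the 46 was 0.13, against 0.02 over all genes tested. Levels of the 4 TGF-β1 and the 4 control libraries did not overlap for 35 of the 46, against 61.4% of all genes, with 24 higher and 11 lower. That share of all genes is not split by direction, here or in the comparisons below. Scaling by library totals shifted the median of all genes by -0.10, and 14 of the 25 higher calls and all 12 lower calls were then kept. The distance of the members' median from that of all genes was 0.12 on either scale. Such a change of scale moves all genes by nearly the same amount, so this distance could hardly differ and is no check on the calls.

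When acetate was added to TGF-β1, nearly all genes of the 26S particle were lower than with TGF-β1 alone, while PSMB8 and PSMB9 were higher and PSMB10 was lower. Of the 46 genes, 3 were called higher and 39 lower, against 33.3% and 30.4% of all genes tested. The median log2 fold change was -0.19, against 0.03 over all genes. The groups did not overlap for 36 genes (3 higher, 33 lower), against 57.4% of all genes. Library totals shifted the median of all genes by 0.13, and under them the 3 higher calls and 21 of the 39 lower calls were kept. The members' median lay 0.22 below that of all genes on either scale (a difference of -0.22), a distance that the change of scale could again hardly alter.

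Acetate together with TGF-β1 against control gave 6 genes called higher and 29 lower, against 36.1% and 34.4% of all genes, with a median log2 fold change of -0.13 against 0.02 over all genes. The groups did not overlap for 30 genes (5 higher, 25 lower), against 64.0% of all genes. Library totals kept all 6 higher calls and 23 of the 29 lower calls. The 3 comparisons share libraries: the TGF-β1 libraries enter the first 2, and the acetate and control libraries enter the third again, so their values for a gene are set side by side here and are not independent of each other.

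**Figure D1:**
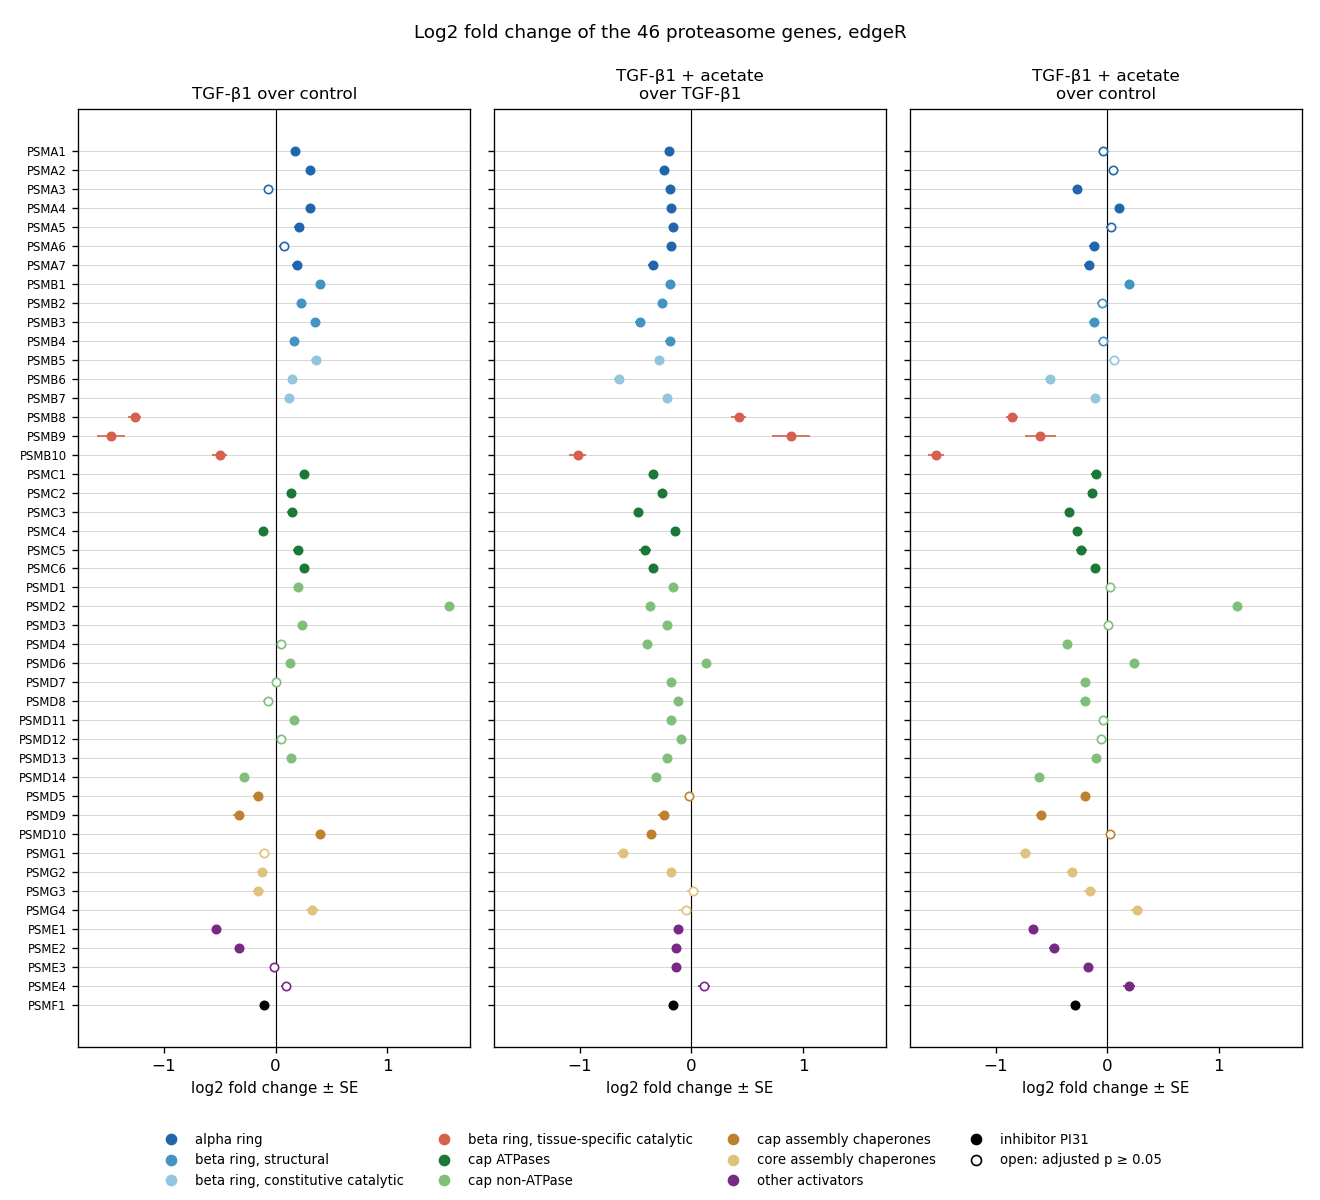
Log2 fold change of each of the 46 proteasome genes (rows, coloured by role) with its standard error in the 3 comparisons, from edgeR; filled points have an adjusted p below 0.05 and open points do not. PSMD2 stands at 1.55 and 1.17 over control and PSMB8, PSMB9 and PSMB10 lie left of most other genes in both comparisons with control, while 30 of the 31 genes of the 26S particle lie left of 0 when acetate is added to TGF-β1 (PSMD8 and PSMD12 change sign under library totals).

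The 31 genes of the standard 26S particle (14 of the core and 17 of the cap) make up most of the 46. They would thus hold most of the calls by number alone. With TGF-β1 against control, 23 of the 31 were called higher and 2 lower (PSMC4 and PSMD14), and 6 were not called; 12 of the 23 were also called higher under library totals. With acetate against TGF-β1, 30 of the 31 were called lower, 17 of them also under library totals, and PSMD6 was called higher. With acetate against control, 4 were called higher and 17 lower, and 10 were not called. Among the other 15 genes, 2 were called higher and 10 lower in TGF-β1 cells against control, 2 higher and 9 lower with acetate against TGF-β1, and 2 higher and 12 lower with acetate against control. The shares of all genes called higher and lower were 34.1% and 32.8%, 33.3% and 30.4%, and 36.1% and 34.4% in the same order. They hold for the smaller sets below too.

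The median log2 fold change of the 14 standard core genes was 0.20 in TGF-β1 cells against control, with 12 called higher, 7 of them also under library totals, and none lower. With acetate against TGF-β1 it was -0.21, with all 14 called lower, 7 of them also under library totals. With acetate against control it was -0.04, with 2 called higher and 6 lower. Among the alpha subunits, PSMA4 and PSMA2 had the largest rises with TGF-β1 (both 0.31 on the log2 scale), whereas PSMA3 (-0.07, adjusted p = 0.0771) and PSMA6 (0.07) were not called. The TGF-β1 libraries were all below control for PSMA3, which was called lower with DESeq2 and its size factors, without control library S1, S2 or S3 (adjusted p between 0.00873 and 0.0479) and under library totals (-0.17, adjusted p = 0.000294). All 7 alpha genes fell with acetate against TGF-β1, between -0.34 for PSMA7 and -0.16 for PSMA5; under library totals PSMA2 and PSMA7 alone were called. Against control, acetate cells had a higher PSMA4 (0.11), lower PSMA3, PSMA6 and PSMA7, and PSMA1, PSMA2 and PSMA5 were not called; library totals ended the PSMA6 call (-0.08, adjusted p = 0.0815) and gave one for PSMA2 (0.09, adjusted p = 0.0223). The PSMA4 call was lost without control library S2 (0.05, adjusted p = 0.232), without acetate library S24 (0.09, adjusted p = 0.0512) and with DESeq2 (0.09, adjusted p = 0.0627).

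Of the 4 beta subunits without a catalytic site, PSMB1 rose the most. PSMB1 was at 105, 109, 113 and 112 CPM with acetate, at 119, 129, 125 and 132 CPM with TGF-β1 and at 95.0, 93.5, 94.6 and 99.9 CPM in control. The acetate libraries lay between the other groups without overlap. Its log2 fold change was 0.40 ± 0.04 (SE) for TGF-β1 against control (adjusted p = 9.94e-08), -0.19 ± 0.04 for acetate against TGF-β1 (adjusted p = 0.000398) and 0.19 ± 0.04 for acetate against control (adjusted p = 0.000182). PSMB2, PSMB3 and PSMB4 rose by 0.23, 0.36 and 0.17 on the log2 scale with TGF-β1, and fell by 0.26, 0.46 and 0.19 when acetate was added. Under library totals PSMB4 was called in neither comparison, and PSMB1 was not called for acetate against TGF-β1 (-0.06, adjusted p = 0.166).

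The catalytic subunits of the standard core moved by different amounts. PSMB5, which carries the chymotrypsin-like activity, was at 105, 102, 117 and 107 CPM with acetate, at 125, 134, 132 and 138 CPM with TGF-β1 and at 108, 98.1, 101 and 106 CPM in control. The TGF-β1 libraries were all above the others, and acetate and control libraries overlapped. Its log2 fold change was 0.36 ± 0.04 for TGF-β1 against control (adjusted p = 5.98e-07), -0.29 ± 0.04 for acetate against TGF-β1 (adjusted p = 3.24e-05) and 0.06 ± 0.05 for acetate against control (adjusted p = 0.247; 95% interval -0.03 to 0.15), which library totals turned into a call (0.10, adjusted p = 0.0355). PSMB6, the caspase-like subunit, was at 88.0, 84.9, 93.3 and 86.6 CPM with acetate, at 129, 144, 141 and 144 CPM with TGF-β1 and at 123, 123, 126 and 132 CPM in control. Its acetate libraries were all below the other 8, and the TGF-β1 library at 129 CPM lay within the control range. PSMB6 fell by 0.65 with acetate against TGF-β1 (SE 0.04, adjusted p = 2.19e-09) and by 0.52 against control (adjusted p = 1.56e-09), and was higher by 0.15 with TGF-β1 against control (adjusted p = 0.00396), a call lost under library totals (0.04, adjusted p = 0.302).

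PSMB7, the trypsin-like subunit, was at 95.2, 94.0, 102 and 93.8 CPM with acetate, at 107, 112, 116 and 114 CPM with TGF-β1 and at 102, 104, 106 and 103 CPM in control. The TGF-β1 libraries were all above the others, and the highest acetate library (S24) lay only just below the lowest control library (S1). The differences were small: 0.12 ± 0.04 for TGF-β1 against control (adjusted p = 0.00549), -0.22 ± 0.04 for acetate against TGF-β1 (adjusted p = 0.000127) and -0.11 ± 0.04 for acetate against control (adjusted p = 0.0124). The first of these calls was lost without control library S1 (0.09, adjusted p = 0.0554) and, like the third, under library totals.

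Among the genes of the 19S cap, PSMD2 stood apart. It encodes the large scaffold subunit Rpn1, at which ubiquitin and the shuttle proteins that deliver substrates dock. PSMD2 (ENSG00000175166.16) lies on the plus strand at chr3:184298709-184309054 of hg38. It was at 483, 465, 479 and 492 CPM with acetate, at 629, 609, 628 and 631 CPM with TGF-β1 and at 225, 207, 209 and 214 CPM in control. The 3 groups were far apart from each other: means were 479.8 ± 11.03 CPM with acetate, 624 ± 10.1 CPM with TGF-β1 and 214 ± 8.14 CPM in control (SD, n = 4 each). PSMD2 was 2.93 times its control level with TGF-β1 (log2 fold change 1.55 ± 0.04, adjusted p = 8.34e-16, edgeR) and 2.24 times with acetate (1.17 ± 0.03, adjusted p = 2.65e-16). Acetate against TGF-β1 gave -0.37 ± 0.03 (adjusted p = 3.51e-08). In the authors' deposited table the log2 fold changes of PSMD2 were 1.55 for TGF-β1 against control and -0.38 for acetate against TGF-β1.

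Measured against the mean of control, each TGF-β1 library had PSMD2 at 1.51 to 1.56 on the log2 scale, while the median of the other 30 genes of the 26S particle in the same libraries was 0.09 to 0.19 and the highest of those 30 reached 0.31 to 0.46. In acetate libraries PSMD2 was at 1.12 to 1.20, and the median of the other 30 was -0.13 to -0.05. PSMD2 alone took 0.0501% of counts with acetate, 0.0591% with TGF-β1 and 0.0217% in control. All 46 genes took 0.494% ± 0.00674 of counts with acetate, 0.533% ± 0.00532 with TGF-β1 and 0.496% ± 0.0136 in control (SD, n = 4 each). Leaving out PSMD2, a step chosen after its values were seen, the shares were 0.444%, 0.474% and 0.475%, so that TGF-β1 and control libraries then overlapped. These are shares of raw counts without TMM scaling. On the TMM scale, 22 of the other 30 genes of the 26S particle were called higher and 2 lower with TGF-β1 against control (median 0.165). Per kilobase of the longest transcript, PSMD2 was at 139 CPM per kb with acetate, 181 with TGF-β1 and 62.0 in control, rank 3, 3 and 15 from the top among the 46 genes.

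The 250 bases before the RefSeq start of PSMD2 on GRCh38.p14, at chr3:184298991-184299240 on the plus strand, are shown because the gene moves unlike its partners. The window lies inside the GENCODE gene span, whose first start is further upstream. Capitals mark its only match among the searched motifs, CCGGAA on the opposite strand, a core sequence bound by ETS family factors.
PSMD2: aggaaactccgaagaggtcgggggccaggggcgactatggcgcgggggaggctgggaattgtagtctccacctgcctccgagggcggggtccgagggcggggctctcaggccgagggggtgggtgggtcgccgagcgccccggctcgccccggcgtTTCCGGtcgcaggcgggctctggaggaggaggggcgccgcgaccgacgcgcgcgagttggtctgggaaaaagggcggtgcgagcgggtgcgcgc
CCGGAA stands, on either strand, in 37.5% of the 40 members with a RefSeq promoter (15 genes) and in 14.5% of all 35116 promoters of this length. Members give a single window per gene, while the 35116 are all windows of the reference, whether or not their gene was expressed here. For each searched motif, the shares are thus not of like genes. The 15 include PSMC2, PSMC3, PSMC5, PSMC6, PSMD6, PSMD8, PSMD11, PSMD12 and PSMD13 among the cap genes, whose changes with TGF-β1 lay between -0.07 (PSMD8) and 0.25 (PSMC6). The letters CCAAT, bound by the factor NF-Y, were in 17 of the 40 windows (42.5%, against 32.0% of all), but not in that of PSMD2. TGACNNNGC, the antioxidant response element that NFE2L1 and NFE2L2 bind, was in 11 of the 40 (27.5%, against 10.9%). Of the 26 matched genes of the 26S particle, 3 held it (11.5%), which is near the share of all promoters. These were PSMB3, PSMD3 and PSMD12, and not PSMD2.

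Of the 8 protein-coding neighbours of PSMD2 tested for TGF-β1 against control, POLR2H had the highest log2 fold change, 0.13. EIF4G1, a scaffold of translation initiation that starts downstream on the same strand, averaged 386 CPM with acetate, 451 CPM with TGF-β1 and 425 CPM in control. It had log2 fold changes of 0.09 for TGF-β1 against control (adjusted p = 0.019), -0.21 for acetate against TGF-β1 (adjusted p = 1.82e-05) and -0.14 for acetate against control (adjusted p = 0.000588). ALG3, a mannosyltransferase gene, fell by 0.32 with TGF-β1 (adjusted p = 0.00024). The value of 0.13 for POLR2H, a subunit shared by the RNA polymerases, had an adjusted p of 0.0179. VWA5B2, at 0.651 CPM with TGF-β1 and 2.29 CPM in control, fell by 1.83 (adjusted p = 3.27e-07) and was higher by 2.13 when acetate was added (adjusted p = 1.31e-07).

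**Figure D2:**
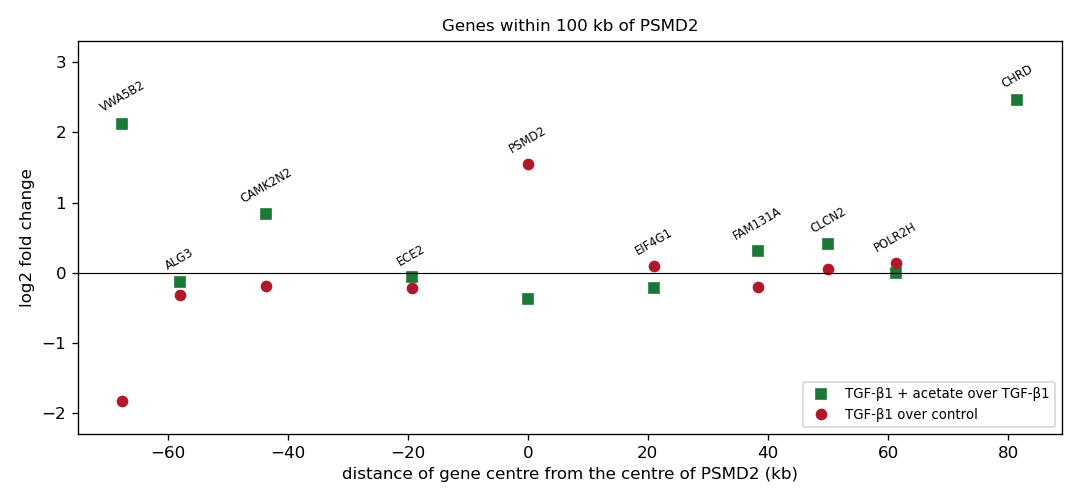
Log2 fold change of the protein-coding genes tested within 100000 bases of PSMD2 on either side, by the distance of each gene's centre from that of PSMD2 in kilobases; circles are TGF-β1 over control and squares TGF-β1 plus acetate over TGF-β1. PSMD2 is the only gene of the region at or above 1 for TGF-β1 over control (1.55), and CHRD, which was not tested in that comparison, has only a square.

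The other ubiquitin-handling subunits of the cap moved less or the other way. PSMD14, the deubiquitinase Rpn11 that cuts ubiquitin chains off the substrate, was at 79.9, 81.3, 82.0 and 80.2 CPM with acetate, at 97.5, 97.8, 103 and 106 CPM with TGF-β1 and at 123, 122, 124 and 126 CPM in control. The 3 groups did not overlap, with acetate lowest and control highest. PSMD14 fell by 0.29 with TGF-β1 against control (SE 0.04, adjusted p = 2.3e-06), by 0.31 with acetate against TGF-β1 (adjusted p = 1.38e-06) and by 0.61 with acetate against control (SE 0.03, adjusted p = 5.3e-12). PSMD4, the ubiquitin receptor Rpn10, was at 93.3, 93.2, 101 and 96.4 CPM with acetate, at 121, 128, 128 and 130.5 CPM with TGF-β1 and at 121, 121, 121 and 129 CPM in control. Acetate libraries were all below the others, and TGF-β1 and control libraries overlapped. The differences were 0.05 ± 0.04 for TGF-β1 against control (adjusted p = 0.223; 95% interval -0.02 to 0.12), -0.39 ± 0.04 for acetate against TGF-β1 (adjusted p = 1.61e-07) and -0.36 ± 0.04 for acetate against control (adjusted p = 7.04e-08).

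PSMD6, the lid subunit Rpn7, was the only gene of the 26S particle called higher with acetate against TGF-β1. It was at 81.0, 82.4, 82.2 and 82.3 CPM with acetate, at 75.3, 75.3, 75.4 and 75.6 CPM with TGF-β1 and at 70.7, 65.7, 69.6 and 70.9 CPM in control. Groups did not overlap, in the order acetate, TGF-β1, control from the highest. The log2 fold change of PSMD6 was 0.13 ± 0.03 for TGF-β1 against control (adjusted p = 0.00342), 0.13 ± 0.03 for acetate against TGF-β1 (adjusted p = 0.00183) and 0.24 ± 0.03 for acetate against control (adjusted p = 1.6e-06). The first call was lost without control library S2 (0.07, adjusted p = 0.0628) and under library totals, while the second, which uses no control library, was kept under library totals.

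The other 7 non-ATPase subunits of the cap changed by at most 0.24 on the log2 scale. PSMD1, the scaffold Rpn2, PSMD3, PSMD11 and PSMD13, which belong to the lid, rose by 0.20, 0.24, 0.16 and 0.14 with TGF-β1 against control, and PSMD7, PSMD8 and PSMD12, also of the lid, were not called (0.00, -0.07 and 0.05). All 7 fell with acetate against TGF-β1, between -0.22 for PSMD3 and PSMD13 and -0.09 for PSMD12. The PSMD12 call (adjusted p = 0.0473) was lost without acetate library S22, S23 or S24 or TGF-β1 library S18 (adjusted p = 0.109, 0.0894, 0.07 and 0.0559), and that of PSMD8 (-0.12, adjusted p = 0.0231) without S23 (adjusted p = 0.0752). Against control, acetate cells had lower PSMD7 (-0.20), PSMD8 (-0.20) and PSMD13 (-0.10), and the other 4 were not called. PSMD7 shares 30.7% of its exons with AC009120.2 on the opposite strand, so its counts are uncertain unless the counting used the strand. Under library totals PSMD3 and PSMD13 alone of the 7 were called for acetate against TGF-β1, the rises of PSMD11 and PSMD13 with TGF-β1 and the PSMD13 call against control were lost, and PSMD7 (-0.10) and PSMD8 (-0.17) were called lower with TGF-β1.

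The 6 ATPases, which unfold the substrate, fell together when acetate was added: all 6 were called lower against TGF-β1, with a median of -0.35 (under library totals PSMC4 was not), and all 6 were called lower against control, with a median of -0.18 (under library totals PSMC1 and PSMC6 were not, at -0.06 each). PSMC3 had the largest fall against TGF-β1 (-0.47 ± 0.04, adjusted p = 5.43e-08), with means of 84.3 ± 1.70 CPM with acetate, 118 ± 7.06 CPM with TGF-β1 and 107 ± 1.89 CPM in control (SD, n = 4 each). With TGF-β1 against control 5 of the 6 rose, by 0.14 to 0.26, and PSMC4 was lower (-0.11, adjusted p = 0.0179). Under library totals the rises of PSMC2 (0.04, adjusted p = 0.332), PSMC3 (0.04, adjusted p = 0.304) and PSMC5 (0.10, adjusted p = 0.0833) were not called. The PSMC4 call was lost without TGF-β1 library S15 (-0.08, adjusted p = 0.0648) and without S17 (-0.10, adjusted p = 0.0524). The exons of PSMC1 overlap those of NRDE2 on the opposite strand over 75.8% of their length and those of PSMC5 overlap FTSJ3 over 19.5%, so their counts are uncertain unless the counting used the strand, which is not given in the sources used here.

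The genes of the immunoproteasome were the least expressed catalytic genes per kilobase and had the largest changes of all core genes in both comparisons with control. PSMB8 (minus strand, chr6:32840717-32844703) encodes the chymotrypsin-like subunit that takes the place of PSMB5. It was at 8.11, 8.14, 8.65 and 8.31 CPM with acetate, at 5.88, 6.42, 6.29 and 6.33 CPM with TGF-β1 and at 14.4, 15.002, 15.6 and 15.05 CPM in control. The 3 groups did not overlap, with TGF-β1 lowest and control highest. TGF-β1 cells had 0.417 times the control level (log2 fold change -1.26 ± 0.06, adjusted p = 9.62e-12), acetate cells had 1.34 times the TGF-β1 level (0.42 ± 0.07, adjusted p = 5.55e-05) and 0.554 times the control level (-0.85 ± 0.05, adjusted p = 5.09e-11).

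PSMB9 (plus strand, chr6:32844136-32859585), which takes the place of PSMB6, followed the same order of groups. It was at 2.94, 2.52, 4.02 and 2.88 CPM with acetate, at 1.18, 1.83, 1.97 and 1.73 CPM with TGF-β1 and at 4.93, 4.45, 4.47 and 4.91 CPM in control. Groups did not overlap, although acetate library S24, at 4.02 CPM, came near the control range. TGF-β1 cells had 0.360 times the control level (-1.47 ± 0.13, adjusted p = 3.14e-08), and acetate cells 1.85 times the TGF-β1 level (0.89 ± 0.17, adjusted p = 0.000317) and 0.660 times the control level (-0.60 ± 0.14, adjusted p = 0.000679). At these levels PSMB9 had 1677 counts in all 12 libraries together, against 5227 for PSMB8. PSMB8-AS1, a long noncoding RNA gene on the strand of PSMB9, covers 20.6% of the exons of PSMB8 and 5.66% of those of PSMB9. It had 3776 counts in the 12 libraries, so reads of PSMB8-AS1 and PSMB9 may be counted together even if the counting used the strand. The log2 fold changes of PSMB8-AS1 were -0.65 for TGF-β1 against control, 0.72 for acetate against TGF-β1 and 0.05 for acetate against control.

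PSMB10 (minus strand, chr16:67934502-67937087), which takes the place of PSMB7, went the other way with acetate. It was at 4.92, 4.63, 5.37 and 5.52 CPM with acetate, at 10.1, 11.3, 10.5 and 9.96 CPM with TGF-β1 and at 14.4, 14.1, 14.6 and 16.2 CPM in control. The 3 groups did not overlap, with acetate lowest. TGF-β1 cells had 0.706 times the control level (-0.50 ± 0.06, adjusted p = 2.58e-06), and acetate cells 0.493 times the TGF-β1 level (-1.02 ± 0.08, adjusted p = 1.51e-08) and 0.345 times the control level (-1.54 ± 0.07, adjusted p = 3.76e-13). AC040162.1, an annotated gene on the same strand that shares 34.8% of the exons of PSMB10 and had 5663 counts against 5400 for PSMB10, had log2 fold changes of -0.35, -0.76 and -1.12 in these 3 comparisons, so reads of both may be counted together.

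**Figure D3:**
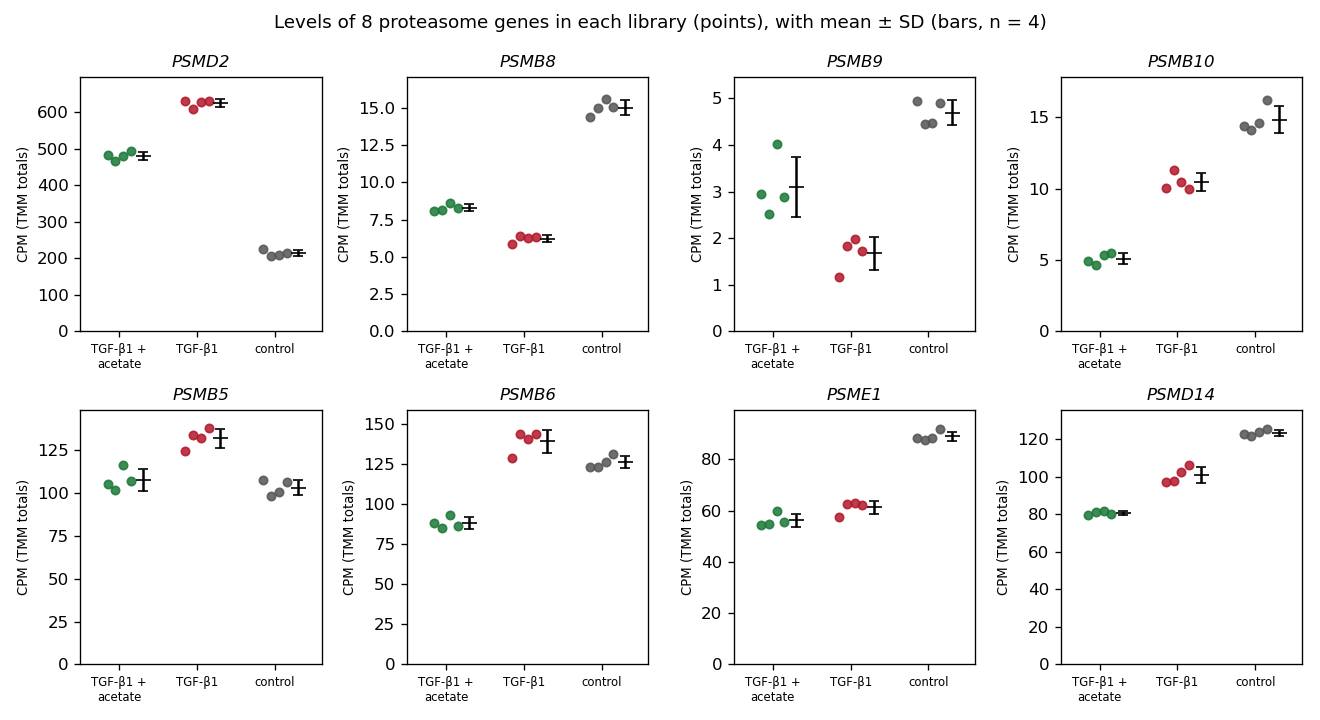
Level of 8 proteasome genes in CPM (vertical axes from 0) in each of the 12 libraries (points), with the mean and SD of each group of 4 (bars), TGF-β1 plus acetate left, TGF-β1 in the middle and control right. PSMD2 is highest with TGF-β1 (624 CPM on average) and lowest in control (214 CPM), PSMB8 and PSMB9 are lowest with TGF-β1, and PSMB10, PSMB6 and PSMD14 are lowest with acetate.

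Set against the subunit each replaces, the inducible genes were a small fraction of the standard ones in every library. Per kilobase of the longest transcript, PSMB8 was at 4.205%, 4.37%, 4.05% and 4.24% of PSMB5 with acetate, at 2.57%, 2.62%, 2.6% and 2.50% with TGF-β1 and at 7.30%, 8.34%, 8.44% and 7.73% in control. PSMB9 was at 1.09%, 0.967%, 1.40% and 1.08% of PSMB6 with acetate, at 0.298%, 0.413%, 0.456% and 0.392% with TGF-β1 and at 1.30%, 1.17%, 1.15% and 1.21% in control. The acetate and control libraries thus overlapped for the second pair, in which PSMB6 itself was lower with acetate, and not for the first. PSMB10 was at 4.16%, 3.96%, 4.24% and 4.73% of PSMB7 with acetate, at 7.56%, 8.11%, 7.27% and 7.02% with TGF-β1 and at 11.4%, 10.9%, 11.04% and 12.7% in control. Another transcript length multiplies the ratio of a pair by the same factor in every library. It thus changes the size of these ratios and cannot change the order of the groups. With the APPRIS principal transcript, an alternative chosen after seeing the data, PSMB8 averaged 8.90%, 5.43% and 16.8% of PSMB5 with acetate, TGF-β1 and in control.

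**Figure D4:**
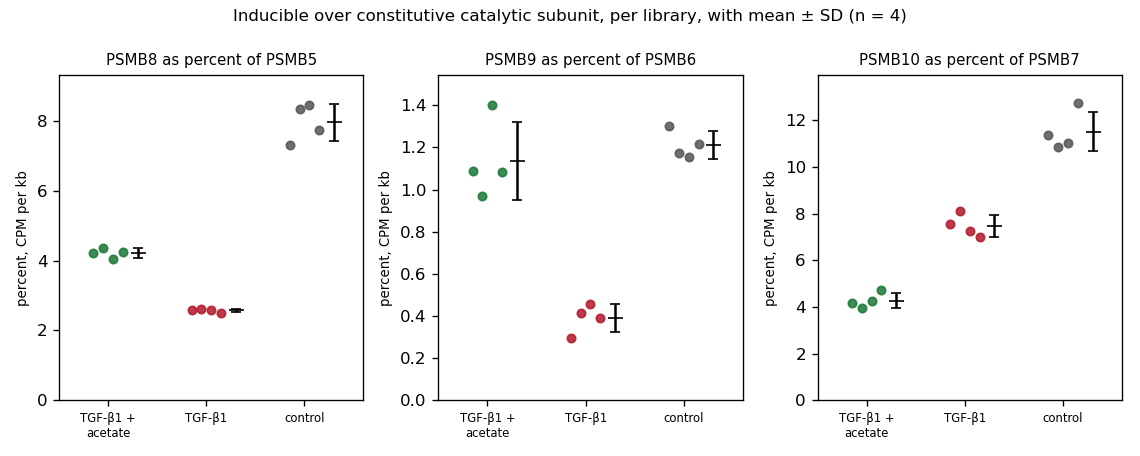
Level of each inducible catalytic gene as a percent of the standard gene it replaces, in CPM per kilobase of the longest transcript, in each library (points) with mean and SD of each group of 4 (bars), TGF-β1 plus acetate left, TGF-β1 in the middle and control right. The first 2 ratios are lowest with TGF-β1 (means 2.57% and 0.390%), and PSMB10 over PSMB7 is lowest with acetate (4.27%).

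The promoters of these genes are shown because PSMB10 and PSME2 hold, just before their RefSeq start, an interferon response motif of the kind that IRF1 binds (GAAA, any 2 bases, GAAA), and PSMB8 and PSMB9 hold none in the same window. Each is the stretch of 250 bases before the RefSeq start on GRCh38.p14, written on the gene's own strand, with matches to any of the 4 searched motifs on either strand in capitals. No matches overlap in these windows. The windows of PSMB9 and PSME2 and most of that of PSMB10 lie inside the GENCODE gene span, as for PSMD2. Both interferon response motifs are thus downstream of the first GENCODE start. PSMB8 is at chr6:32844680-32844929 (minus strand) and has no match, PSMB9 at chr6:32853942-32854191 (plus strand) with CCAAT and the reverse complement of TGACNNNGC, PSMB10 at chr16:67936851-67937100 (minus strand) with the interferon response motif 21 bases before the start, and PSME2 at chr14:24146611-24146860 (minus strand) with TGACNNNGC and, 28 bases before the start, the interferon response motif.
PSMB8: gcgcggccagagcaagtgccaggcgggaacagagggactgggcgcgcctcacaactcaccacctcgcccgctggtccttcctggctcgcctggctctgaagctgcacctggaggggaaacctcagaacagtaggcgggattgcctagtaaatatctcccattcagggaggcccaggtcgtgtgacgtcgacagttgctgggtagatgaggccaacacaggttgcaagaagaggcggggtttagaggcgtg
PSMB9: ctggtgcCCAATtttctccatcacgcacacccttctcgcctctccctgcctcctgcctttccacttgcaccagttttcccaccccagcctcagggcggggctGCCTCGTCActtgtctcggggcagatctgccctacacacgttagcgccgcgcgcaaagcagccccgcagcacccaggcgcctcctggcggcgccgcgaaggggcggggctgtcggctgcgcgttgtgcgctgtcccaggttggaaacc
PSMB10: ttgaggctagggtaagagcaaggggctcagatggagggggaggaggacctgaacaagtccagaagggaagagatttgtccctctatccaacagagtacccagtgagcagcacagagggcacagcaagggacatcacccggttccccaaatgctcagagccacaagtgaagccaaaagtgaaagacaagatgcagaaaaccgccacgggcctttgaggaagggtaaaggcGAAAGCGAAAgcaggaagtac
PSME2: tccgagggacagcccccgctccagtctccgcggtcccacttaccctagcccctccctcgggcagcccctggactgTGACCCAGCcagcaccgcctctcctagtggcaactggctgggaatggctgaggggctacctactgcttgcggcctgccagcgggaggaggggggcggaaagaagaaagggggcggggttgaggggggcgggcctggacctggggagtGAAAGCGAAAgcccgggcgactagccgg
The interferon response motif was in 5 of the 40 matched members (12.5%; PSMA4, PSMB4, PSMB10, PSME2 and PSMG4) against 3.02% of all promoters. Of these 5, PSMB10 and PSME2 fell with TGF-β1 against control, and PSMA4, PSMB4 and PSMG4 rose. A match of letters is a description of this window and not a site shown to be bound.

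Of the activators other than the 19S cap, the pair PSME1 and PSME2 was lower after either treatment. PSME1, the alpha subunit of PA28, was at 54.6, 54.8, 59.9 and 55.5 CPM with acetate, at 57.5, 62.5, 63.0 and 62.2 CPM with TGF-β1 and at 88.6, 87.8, 88.6 and 91.7 CPM in control. All 8 treated libraries were below all control libraries, and the treated groups overlapped. PSME1 fell by 0.54 with TGF-β1 against control (SE 0.04, adjusted p = 1.45e-09) and by 0.67 with acetate against control (adjusted p = 1.21e-11). Acetate against TGF-β1 gave -0.12 (adjusted p = 0.024), a call lost without acetate libraries S22, S23 or S25 (adjusted p = 0.0635, 0.064 and 0.0595) and with library totals, where the value was 0.02.

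PSME2, the beta subunit of PA28, was at 55.3, 52.5, 58.7 and 54.3 CPM with acetate, at 57.5, 63.6, 60.0 and 63.3 CPM with TGF-β1 and at 77.7, 75.8, 76.2 and 77.9 CPM in control. The pattern of overlap was that of PSME1. PSME2 had a log2 fold change of -0.33 ± 0.04 for TGF-β1 against control (adjusted p = 8.54e-07), -0.13 ± 0.04 for acetate against TGF-β1 (adjusted p = 0.0128) and -0.48 ± 0.04 for acetate against control (adjusted p = 2.8e-09). Under library totals the second call was lost (-0.00327, adjusted p = 0.947).

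PSME3, the nuclear PA28γ, was at 134, 132, 134 and 137 CPM with acetate, at 152, 149, 142 and 152 CPM with TGF-β1 and at 155, 146, 153 and 150.1 CPM in control. Acetate libraries were all below the other 8. It was lower by 0.14 with acetate against TGF-β1 on the log2 scale (-0.14 ± 0.03, adjusted p = 0.00218) and by 0.17 against control (-0.17 ± 0.03, adjusted p = 0.000181), and TGF-β1 against control gave -0.01 ± 0.04 (adjusted p = 0.732; 95% interval -0.08 to 0.05). Library totals ended the call against TGF-β1 (-0.00729, adjusted p = 0.875) and gave one for TGF-β1 against control (-0.12, adjusted p = 0.0161). PSME4, the activator PA200, was at 102, 94.9, 84.3 and 99.2 CPM with acetate, at 93.2, 84.5, 87.2 and 88.4 CPM with TGF-β1 and at 86.7, 86.9, 77.3 and 80.7 CPM in control. All groups overlapped. Acetate against control gave 0.20 ± 0.05 (adjusted p = 0.00284). The other comparisons were not called, at 0.10 (adjusted p = 0.0645) and 0.12 (adjusted p = 0.0671), but the first was called without TGF-β1 library S16 (0.12, adjusted p = 0.0369), and the second without acetate library S24 (0.17, adjusted p = 0.0021) and under library totals (0.25, adjusted p = 0.00136).

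PSMF1, the inhibitor PI31 that also helps move proteasomes within cells, was at 104, 96.0, 103 and 103 CPM with acetate, at 112, 118, 109 and 119 CPM with TGF-β1 and at 124, 122, 123 and 125 CPM in control. Groups did not overlap, in the order control, TGF-β1, acetate from the highest. It fell by 0.10 with TGF-β1 against control (SE 0.03, adjusted p = 0.0162), by 0.17 with acetate against TGF-β1 (adjusted p = 0.00133) and by 0.28 with acetate against control (adjusted p = 9.38e-07). The first call was lost without TGF-β1 library S17 (-0.08, adjusted p = 0.0759), and the second under library totals (-0.04, adjusted p = 0.426).

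The 7 assembly chaperones are not part of the finished particle. In TGF-β1 cells against control, 2 were called higher (PSMD10, PSMG4) and 4 lower (PSMD5, PSMD9, PSMG2, PSMG3), with a median of -0.13. With acetate against TGF-β1, 4 were called lower and none higher, with a median of -0.18, and with acetate against control 5 lower and 1 higher. Under library totals PSMD5 (0.11, adjusted p = 0.00865) and PSMG3 (0.15, adjusted p = 0.0109) were called higher with acetate against TGF-β1, and the PSMG2 call was lost. PSMD10, or gankyrin, a chaperone of the ATPase ring, was at 60.6, 65.3, 63.3 and 62.8 CPM with acetate, at 79.4, 84.5, 80.1 and 81.7 CPM with TGF-β1 and at 64.8, 58.4, 61.3 and 63.4 CPM in control. TGF-β1 libraries were all above the other 8. Its log2 fold change was 0.40 ± 0.04 for TGF-β1 against control (adjusted p = 1.12e-07), -0.36 ± 0.04 for acetate against TGF-β1 (adjusted p = 3.6e-07) and 0.02 ± 0.04 for acetate against control (adjusted p = 0.604; 95% interval -0.05 to 0.10). PSMD9, another chaperone of that ring, averaged 35.6 ± 1.51 CPM with acetate, 42.5 ± 2.81 CPM with TGF-β1 and 53.7 ± 1.47 CPM in control (SD, n = 4 each), and fell in each of the 3 comparisons, by 0.33, 0.25 and 0.59 on the log2 scale.

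Of the chaperones of the core, PSMG1, which builds the alpha ring together with PSMG2, was at 27.4, 25.01, 27.6 and 25.2 CPM with acetate, at 39.9, 41.1, 37.8 and 43.7 CPM with TGF-β1 and at 44.1, 43.0, 44.5 and 43.1 CPM in control. The acetate libraries were far below the other 8, which overlapped. PSMG1 fell by 0.62 with acetate against TGF-β1 (SE 0.05, adjusted p = 4.29e-08) and by 0.73 against control (adjusted p = 4.69e-11). TGF-β1 against control gave -0.10 (adjusted p = 0.0507), which became a call without control library S1, S2, S3 or S4 or without TGF-β1 library S18 (adjusted p between 0.0125 and 0.0453), and with DESeq2, limma-voom and library totals. PSMG4, a partner of PSMG3 in the same assembly step, was at 16.6, 14.9, 15.4 and 16.99 CPM with acetate, at 17.2, 16.1, 15.96 and 17.3 CPM with TGF-β1 and at 13.6, 13.7, 13.4 and 12.4 CPM in control. PSMG4 shares 13.3% of its exons with SLC22A23 on the opposite strand, so its counts are uncertain unless the counting used the strand. All treated libraries were above all control libraries. The log2 fold changes were 0.33 ± 0.05 for TGF-β1 against control (adjusted p = 4.74e-05), -0.05 ± 0.06 for acetate against TGF-β1 (adjusted p = 0.469; 95% interval -0.16 to 0.06) and 0.27 ± 0.06 for acetate against control (adjusted p = 0.000321).

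Levels differed widely between the genes. Per kilobase of the longest transcript, PSMA7 had the highest level of the 46 in each group (182 CPM per kb with acetate, 232 with TGF-β1 and 204 in control), and PSMB9 the lowest (1.16, 0.626 and 1.75 CPM per kb). PSMB8 (3.50, 2.63 and 6.33), PSMB10 (4.19, 8.59 and 12.2) and PSMG4 (3.47, 3.62 and 2.89) followed, except that in control PSME4 (11.7) was below PSMB10. With the union of exons PSMG4 was lowest in control and PSMB9 in the other groups. With the APPRIS principal transcript, an alternative chosen after seeing the data that gives a length for 42 of the 46, PSMB9 was lowest in each group, and PSMA7 was highest under both. PSME1 and PSME2 were at 49.5 and 20.1 CPM per kb with acetate, at 53.96 and 22.2 with TGF-β1 and at 78.5 and 27.9 in control.

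Genes outside the PSM names that belong to the same pathway did not move as one group. Of 13 tested genes for other proteasome parts and partners, 4 were called higher and 8 lower with TGF-β1 against control (34.1% and 32.8% of all genes). With acetate against TGF-β1, 4 were higher and 7 lower (33.3% and 30.4% of all), and with acetate against control 3 higher and 7 lower (36.1% and 34.4%). SHFM1, the small cap subunit also called SEM1, averaged 57.6 CPM with acetate, 74.5 CPM with TGF-β1 and 44.1 CPM in control, and its log2 fold changes were 0.76 for TGF-β1 against control (adjusted p = 1.26e-10) and -0.36 for acetate against TGF-β1 (adjusted p = 2.63e-05). POMP, the maturation factor of the core, rose by 0.27 with TGF-β1 (adjusted p = 1.01e-06) and fell by 0.14 when acetate was added (adjusted p = 0.00216), a call lost under library totals (-0.00582, adjusted p = 0.902). UCHL5, a cap-bound deubiquitinase, fell by 0.48 with TGF-β1 (adjusted p = 1.26e-08), and AKIRIN2, which carries proteasomes into the nucleus, fell by 0.58 (adjusted p = 1.61e-08). KIAA0368, also called ECPAS, fell by 0.43 with acetate against TGF-β1 (adjusted p = 2.84e-08), and PITHD1 by 0.47 (adjusted p = 7.66e-07). ZFAND5, an activator of the 26S particle, was higher by 0.25 with acetate against TGF-β1 (adjusted p = 5.5e-06).

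Genes that control transcription of proteasome genes were mostly lower in treated cells. Of 14 tested, 2 were called higher and 9 lower with TGF-β1 against control (34.1% and 32.8% of all genes). With acetate against TGF-β1, 2 were higher and 6 lower (33.3% and 30.4% of all), and with acetate against control 1 higher and 12 lower (36.1% and 34.4%). The NFE2L2 call for acetate against TGF-β1 (0.09, adjusted p = 0.0426) was lost with DESeq2 (adjusted p = 0.141), without the filter and without each TGF-β1 library. NFE2L1, the factor that raises proteasome genes when the proteasome is inhibited, averaged 134 ± 4.13 CPM with acetate, 141 ± 2.63 CPM with TGF-β1 and 209.8 ± 8.18 CPM in control (SD, n = 4 each). Its log2 fold change was -0.57 for TGF-β1 against control (adjusted p = 5.02e-10) and -0.65 for acetate against control (adjusted p = 4.44e-12). NFE2L2 fell by 1.10 with TGF-β1 (adjusted p = 2.82e-14) and MAFG, a small partner of both NFE2L1 and NFE2L2, by 0.92 (adjusted p = 4.93e-13). IRF1 averaged 11.4 CPM with acetate, 11.4 CPM with TGF-β1 and 15.1 CPM in control and fell by 0.40 with TGF-β1 (adjusted p = 2.28e-05). With acetate against TGF-β1, NFE2L3 was higher by 1.05 (adjusted p = 1.22e-09), NFYC, a subunit of NF-Y, fell by 0.71 (adjusted p = 7.47e-09) and MAFK fell by 0.67 (adjusted p = 1.25e-08).

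Of 14 tested genes for ubiquitin, its activation and its delivery to the proteasome, 8 were called higher and 3 lower with TGF-β1 against control (34.1% and 32.8% of all genes). With acetate against TGF-β1, 1 was higher and 11 lower (33.3% and 30.4% of all), and with acetate against control 5 higher and 6 lower (36.1% and 34.4%). UBA6, a ubiquitin-activating enzyme, rose by 0.92 with TGF-β1 (adjusted p = 3.65e-13) and fell by 0.39 with acetate against TGF-β1 (adjusted p = 8.08e-08). VCP, the segregase that extracts ubiquitin-tagged proteins, averaged 513 CPM with acetate, 663 CPM with TGF-β1 and 459 CPM in control, with log2 fold changes of 0.53 for TGF-β1 against control (adjusted p = 5.44e-10) and -0.36 for acetate against TGF-β1 (adjusted p = 4.33e-08). RPS27A, a fusion of ubiquitin and a ribosomal protein, fell by 0.48 with acetate against TGF-β1 (adjusted p = 4.87e-09).

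Genes for the loading of peptides on MHC class I, the step after the proteasome, gave 8 called higher and 5 lower of 15 with TGF-β1 against control (34.1% and 32.8% of all genes). With acetate against TGF-β1, 10 were higher and none lower (33.3% and 30.4% of all), and with acetate against control 10 higher and 3 lower (36.1% and 34.4%). The ERAP1 call for acetate against TGF-β1 (0.10, adjusted p = 0.0399) was lost in 10 of the other fits at the same threshold, among them DESeq2 and each TGF-β1 library left out. That of CALR (0.10, adjusted p = 0.0138) was lost without TGF-β1 library S15, S16 or S17 (adjusted p = 0.135, 0.083 and 0.0871) and with DESeq2 size factors. PDIA3 (-0.06, adjusted p = 0.0769) was called lower with DESeq2, DESeq2 size factors and limma-voom and without S15 or S16, but higher under library totals (0.07, adjusted p = 0.0473). HLA-B averaged 28.1 CPM with acetate, 11.2 CPM with TGF-β1 and 6.69 CPM in control, and was higher with acetate than with TGF-β1 by 1.34 on the log2 scale (adjusted p = 4.62e-11). HLA-F was higher by 1.36 (adjusted p = 8.2e-09) and HLA-E by 0.59 (adjusted p = 4.51e-09) in the same comparison. HLA genes resemble each other closely and vary between people, so the split of their reads is uncertain. CALR and PDIA3, chaperones of class I folding, rose by 1.00 (adjusted p = 4.89e-13) and 0.77 (adjusted p = 2.93e-12) with TGF-β1 against control, and ERAP1, which trims peptides to length, fell by 0.71 (adjusted p = 3.44e-11). The peptide transporter TAP1, named here after its values were seen since it lies beside PSMB8 and PSMB9 in the MHC region, averaged 27.4 CPM with acetate, 18.4 CPM with TGF-β1 and 27.5 CPM in control. TAP1 had a log2 fold change of -0.58 for TGF-β1 against control (adjusted p = 1.54e-08), 0.58 for acetate against TGF-β1 (adjusted p = 1.79e-07) and -0.01 for acetate against control (adjusted p = 0.905).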

How the data were processed

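Per the labels' protocols, total RNA depleted of ribosomal RNA was made into stranded libraries and read as pairs. Per the submitters' processing notes, bcl2fastq, HISAT2, limma and hg38 were used; how reads were counted, with which annotation and whether by strand, is not stated there. The deposited tables hold raw counts per gene and, from the authors' own comparison, log2 fold changes, p-values and q-values. The tables' other 32 per-library columns were not used. No label ties a count column to a sample: columns were placed in groups from the table names and the set shared by both tables, and every comparison rests on those names.

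The tests used edgeR 4.0.16 in R 4.3.3 (filterByExpr with minimum count 10 and total 15, TMM, glmQLFit, glmQLFTest, two-sided, Benjamini-Hochberg over all genes, threshold 0.05). The procedure was run on simulated counts with a constant spread and few genes changed. That run cannot show how the tests behave where most genes are called, as here. TGF-β1 against control and acetate against TGF-β1 each used 1 table, and acetate against control used all 12 libraries in a joint fit. SE is the log2 fold change divided by the root of F, and intervals are normal 95% intervals. Alternatives used library totals, DESeq2 1.42.0 or its size factors, limma-voom (limma 3.58.1), no filter, 1 joint fit, a threshold of 0.01 and each library left out. Coordinates and lengths come from GENCODE release 29, which places all 46 genes as the tables do; promoters come from RefSeq GRCh38.p14, with 40 of 46 matched by symbol.

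The members and lists were chosen with earlier results of these data known. Values in every library are given for the catalytic subunits, activators, PSMF1, PSMD2, PSMD4, PSMD14 and the 3 largest called rises and falls of each comparison; of each outside list, those are named that rank 1 to 3 by p in either of the first 2 comparisons, plus NFE2L1, NFE2L2, POMP and IRF1. Some genes that this rule names are not reported here. Several members share exons with another annotated gene on the same strand: AC018523.2 with PSMA1, AC010132.3 with PSMA2, AL121594.1 with PSMA6, PSMB8-AS1 with PSMB9, AC040162.1 with PSMB10, and AC069503.2 and WDR66 with PSMD9. Pseudogenes with a row had at most 2.31% of their parent's counts.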

Additional observations from a re-analysis of the deposited data

Results flagged for a closer look

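In 12 of 138 combinations of a proteasome gene and a group, 1 library lay far from the other 3, where chance alone flags about 1 in 20 groups. In 5 of the 12, acetate library S24 was the high one: PSMA7 at 198 CPM (others 182 to 183), PSMB7 at 102 CPM (93.8 to 95.2), PSMC4 at 175 CPM (159 to 161), PSMD9 at 37.8 CPM (34.7 to 35.1) and PSME1 at 59.9 CPM (54.6 to 55.5). Acetate library S23 was low for PSMF1, at 96.0 CPM (103 to 104).

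TGF-β1 library S15 was low for PSMB4, at 161 CPM (175 to 176), and for PSME1, at 57.5 CPM (62.2 to 63.0), and library S16 was low for PSMD2, at 609 CPM (628 to 631). Among control libraries, S2 was low for PSMD5, at 75.0 CPM (82.6 to 84.2), and for PSMG2, at 43.6 CPM (47.6 to 48.2), and S4 was high for PSMD4, at 129 CPM (121 in all others). What sets these libraries apart was not tested.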

How the results depend on the processing

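No paired analysis was possible because the count columns carry no replicate numbers. DESeq2, DESeq2 size factors in edgeR, limma-voom, no filter, the joint fit and the 0.01 threshold kept every count of members called higher or lower within 1.5 times its value. Library totals did not: for TGF-β1 against control 14 members were then called higher and the median was 0.0296, for acetate against TGF-β1 6 were called higher and 21 lower with a median of -0.0595, and for acetate against control the median was -0.0847. Under them the values of PSMD7 for TGF-β1 against control (-0.10), and of PSMD5 (0.11), PSMD8 (0.0145), PSMD12 (0.0401), PSME1 (0.0163) and PDIA3 (0.0706) for acetate against TGF-β1, changed sign. So did values that were called under neither scaling: PSMA6 (-0.03), PSMD4 (-0.05), PSMD12 (-0.05) and PSME4 (-0.01) for TGF-β1 against control, PSMG4 (0.08) for acetate against TGF-β1, and PSMA1, PSMB4 and PSMD11 (each 0.01) for acetate against control. That scaling has no factors for composition, and the shift of the median of all genes is given above.

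Leaving out each library in turn gave a median between 0.0907 (without control library S2) and 0.15 for TGF-β1 against control and between -0.25 (without TGF-β1 library S15) and -0.19 for acetate against TGF-β1. Of the members called, 22 of 25 higher and 9 of 12 lower for TGF-β1 against control, 3 of 3 and 36 of 39 for acetate against TGF-β1, and 5 of 6 and 25 of 29 for acetate against control kept their call in every fit other than library totals and the 0.01 threshold. The calls lost without 1 library, beyond those named above, were PSMD13 (without control library S2) and PSMG3 (without TGF-β1 library S15) for TGF-β1 against control, and PSMB3, PSMC1, PSMD13 and PSMG3 for acetate against control; the cause was not tested.

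With the union of exons in place of the longest transcript, the means with acetate, TGF-β1 and in control were 4.55%, 2.78% and 8.59% for PSMB8 over PSMB5, 1.64%, 0.564% and 1.75% for PSMB9 over PSMB6, and 5.12%, 8.98% and 13.8% for PSMB10 over PSMB7. With the APPRIS transcript, added after seeing the data, they were 8.90%, 5.43% and 16.8% for the first, 3.801%, 1.30% and 4.05% for the second, and as for the longest transcript for the third. A change of length cannot alter the order of the groups for a pair, so these values are no check on that order. Depth limits PSMB9 most, at 1677 counts in 12 libraries.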
